A study of Homo sapiens with 18 samples.

Results

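Stress cytokines and angiogenic factors were followed in A1847 cells, a human line described in the study as high-grade serous ovarian cancer. The 10 genes were taken from the count table by symbol, out of 57736 Ensembl genes: GDF15, VEGFA, STC2, INHBE, CXCL8, IL6, CXCL2, CCL2, LIF and ANGPTL4. The table held 18 libraries of 3′ mRNA tags, 3 for each of 6 groups. Control cells, which the labels give as wild type for CARM1 and XBP1, CARM1 knockout cells and XBP1 knockdown cells were each given vehicle or 5 µg/ml tunicamycin for 8 h. CARM1 is an arginine methyltransferase that acts as a transcriptional coactivator, and its gene was targeted with a lentiviral CRISPR vector and 1 guide. XBP1 is a transcription factor of the unfolded protein response and was lowered with a short hairpin RNA. Whether the knockout line was a single clone, and which vector the control cells carried, are not given in the sources used here. Nothing in the labels says that the 3 libraries of a group came from separate cultures, so the p-values measure the spread between these libraries, which may be technical.

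Tunicamycin blocks N-linked glycosylation, so that misfolded glycoproteins gather in the endoplasmic reticulum (ER) and the sensors PERK, IRE1α and ATF6 are switched on. PERK raises translation of ATF4, a factor known to induce GDF15, STC2, INHBE and VEGFA, while IRE1α splices XBP1 mRNA into the form that encodes XBP1s. CXCL8, IL6, CXCL2 and CCL2 are classical targets of NF-κB, LIF belongs to the IL6 family, and ANGPTL4 is known for its induction by hypoxia and by fatty acid receptors.

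The CARM1 knockout libraries stood apart from the other 12. Library totals ranged from 9367462 to 13917212 counts, both extremes being CARM1 knockout with vehicle. Pearson's r of log2 CPM over the 17317 tested genes was 0.986 to 0.989 between libraries of a group and 0.980 to 0.987 between control and XBP1 knockdown with the same treatment. It was 0.73 to 0.775 between CARM1 knockout libraries and the others. The 4 Müllerian and ovarian carcinoma markers PAX8, WT1, MUC16 and MSLN summed to at most 0.304 CPM in any control or XBP1 knockdown library and to 51.7 to 74.6 CPM in the CARM1 knockout libraries. PAX8 had at most 2 counts in the former and 465 to 840 in the latter, and MUC16 was at 0 in all 18. The 5 epithelial markers summed to 311 to 488 CPM in control, 131 to 214 CPM in XBP1 knockdown and 1840 to 2280 CPM in CARM1 knockout libraries, although KRT19 was at 0 in the knockout. COL1A2, a fibroblast collagen, had 8503 to 12954 counts in control libraries and 0 to 34 in CARM1 knockout libraries. COL1A1, another fibroblast collagen, had 103 to 259 counts in control and 2205 to 6247 in CARM1 knockout libraries. The 5 fibroblast markers summed to 715 to 890 CPM in control, 583 to 861 CPM in XBP1 knockdown and 187 to 501 CPM in CARM1 knockout libraries. Leukocyte markers summed to at most 8.34 CPM, mainly CD68 in the knockout, and the endothelial markers to at most 0.377 CPM. PAX8, WT1, MUC16 and MSLN, 4 markers of the named tumour type, were therefore not detectable in control and XBP1 knockdown cells at this depth. In the knockout WT1 was also low, at 3 to 13 counts. Knockout of CARM1 cannot be told apart from any other difference between that line and the rest. CARM1 itself, read from its 3′ end, was at 162 CPM ± 2.69 (SD, n = 3) in control cells with vehicle and 74.2 CPM ± 3.11 in the knockout, but a 3′ tag need not cover the edited part and does not check the edit. XBP1 was at 45.9 CPM ± 4.5 in control and 25.4 CPM ± 1.25 in knockdown cells with vehicle, and at 150 CPM ± 3.02 and 71.6 CPM ± 2.35 with tunicamycin.

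The stretches before 3 of the inflammatory genes are shown because their expression set the CARM1 knockout libraries apart. These are the 150 bases before the transcription start in RefSeq (build GRCh38.p14), 5′ to 3′ on the gene's own strand: CXCL8 at chr4:73740419-73740568 on the plus strand, IL6 at chr7:22727050-22727199 on the plus strand and CXCL2 at chr4:74099196-74099345 on the minus strand. Capitals mark matches to a κB site (GGNNTTTCC) and, in CXCL8, to an AP-1 site (TGANTCA), both searched on both strands.

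CXCL8: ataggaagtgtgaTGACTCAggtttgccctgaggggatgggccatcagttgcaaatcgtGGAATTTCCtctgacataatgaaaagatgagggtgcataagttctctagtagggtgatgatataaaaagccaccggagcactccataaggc
IL6: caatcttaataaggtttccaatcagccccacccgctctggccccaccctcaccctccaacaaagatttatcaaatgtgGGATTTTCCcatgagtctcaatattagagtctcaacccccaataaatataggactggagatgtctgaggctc
CXCL2: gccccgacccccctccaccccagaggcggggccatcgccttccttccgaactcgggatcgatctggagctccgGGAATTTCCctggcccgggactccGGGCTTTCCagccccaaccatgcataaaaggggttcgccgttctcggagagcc

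The search covered 250 bases before the start in the 6 of the 10 genes with an entry, and VEGFA, INHBE, CCL2 and LIF had none. CXCL8 held 1 κB match, 91 to 83 bases before its start, IL6 held 1 at 72 to 64 bases and CXCL2 held 2, at 77 to 69 and 53 to 45 bases. Of 35116 RefSeq promoters of this length, 5.48% held a κB match and 6.57% an AP-1 match. A C/EBP match (TTGCNNAA) was found in IL6 and CXCL2 and in 9.05% of all promoters, and the hypoxia response core ACGTG in ANGPTL4 and in 18.5%. The element read by ATF4 with C/EBP factors (TGATGNAA, in 3.14% of promoters), the UPRE core (TGACGTG, in 1.68%) and the ER stress element were not found in the 6 windows. The motifs were picked with these genes in view, none overlapped another in these windows, and a match describes letters only.

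With tunicamycin, GDF15, STC2, VEGFA and INHBE rose in all 3 genotypes and ANGPTL4 fell in all 3. A gene was called when its adjusted p in edgeR's quasi-likelihood test was under 0.05, over 17317 genes that passed a filter on low counts. CCL2 did not pass. In control cells 4 of the 9 members tested rose, against 22.0% of all genes tested, and 1 fell, against 19.9%. In CARM1 knockout cells 6 rose (20.6% of all genes) and 1 fell (18.8%), and in XBP1 knockdown cells 4 rose (19.2%) and 1 fell (19.0%). CXCL8, IL6 and CXCL2 passed the filter only through the CARM1 knockout libraries, where they were high. INHBE passed it only through tunicamycin libraries, so its place among the genes that rose is a description. In control cells the 6 members with a fold change had a median log2 change of 2.42, and all tested genes one of 0. In bulk libraries fewer expressing cells and less RNA per cell cannot be told apart.

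**Figure D1:**
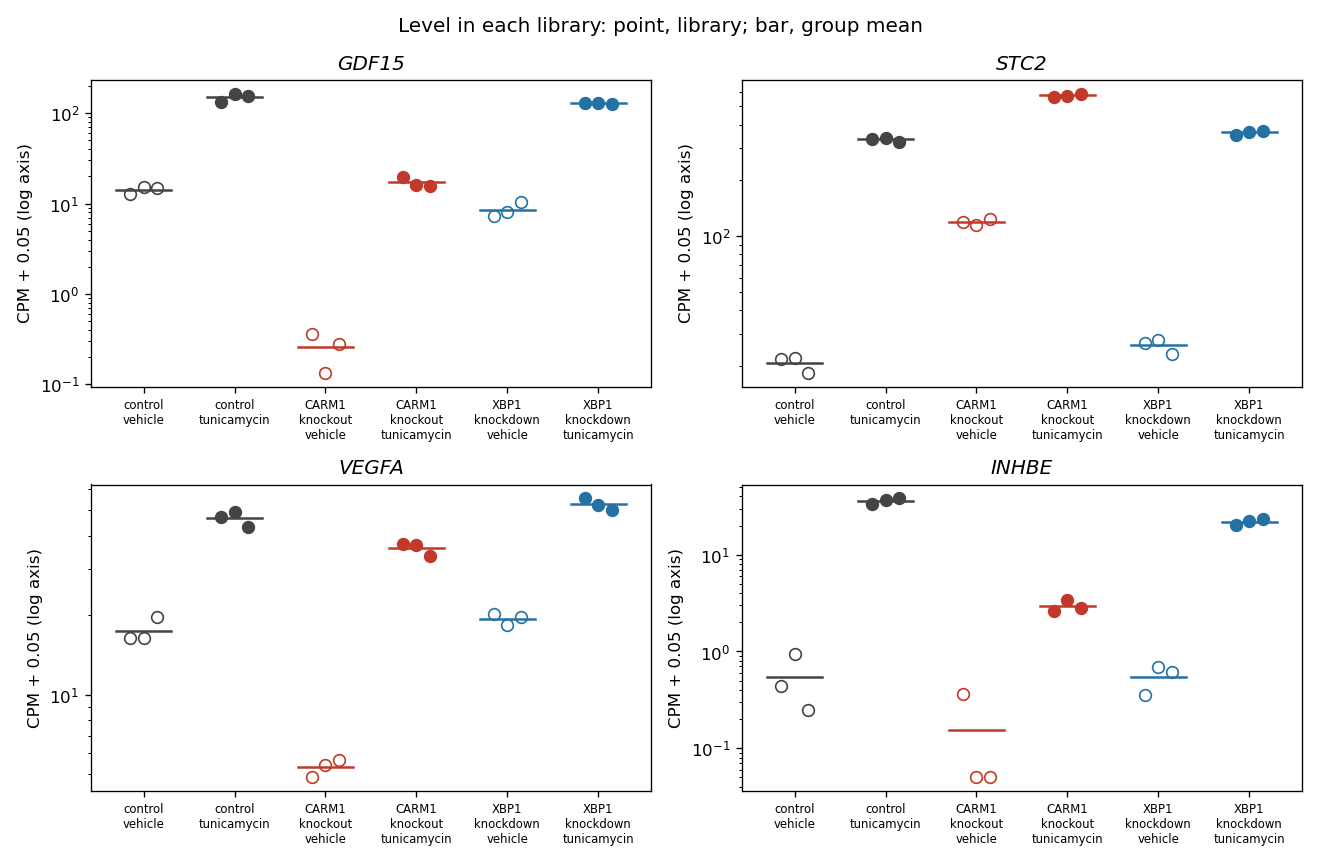
Level of GDF15, STC2, VEGFA and INHBE in each library, as CPM + 0.05 on a log axis, in the 6 groups. Open points are vehicle, filled points tunicamycin, and bars the mean of 3 libraries; each gene is higher with tunicamycin than with vehicle in every genotype, and GDF15 is lowest in CARM1 knockout cells with vehicle, at 1 to 4 counts.

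GDF15 (ENSG00000130513, chr19:18485541-18499986, GRCh37, plus strand) encodes a secreted TGFβ-family cytokine that signals to the hindbrain receptor GFRAL. Control libraries held 165, 205 and 219 counts with vehicle and 1617, 1974 and 2038 with tunicamycin. CARM1 knockout libraries held 4, 1 and 2 with vehicle and 231, 201 and 198 with tunicamycin. XBP1 knockdown libraries held 96, 113 and 146 with vehicle and 1846, 1496 and 1524 with tunicamycin. Within each genotype the treatments did not overlap, and the treated knockout libraries lay near the untreated control ones. The mean level was 14.2 CPM ± 1.24 (SD, n = 3) and 151 CPM ± 14.6 in control, 0.208 CPM ± 0.115 and 17.2 CPM ± 2.3 in CARM1 knockout, and 8.5 CPM ± 1.57 and 129 CPM ± 2.74 in XBP1 knockdown cells, for vehicle and tunicamycin. Tunicamycin raised GDF15 10.7-fold in control cells (log2 3.42, SE 0.0908, adjusted p = 4.87e-14) and 15.1-fold in XBP1 knockdown cells (log2 3.91, SE 0.0909, adjusted p = 5.29e-14). In CARM1 knockout cells the ratio of pooled CPM was 81.9, with an exact 95% counting interval of 39.5 to 205, because the vehicle libraries held 7 counts in all. CARM1 knockout cells had 68.1-fold less GDF15 than control cells with vehicle (interval 32.8 to 170, adjusted p = 1.39e-11) and 8.76-fold less with tunicamycin (log2 −3.13, SE 0.093, adjusted p = 1.89e-13). The response to tunicamycin was larger in the knockout by 2.89 on the log2 scale (SE 0.426, adjusted p = 4.09e-05 for the interaction), a value that rests on those 7 counts. In XBP1 knockdown cells GDF15 was 1.68-fold lower than in control cells with vehicle (log2 −0.74, SE 0.139, adjusted p = 0.00582). With tunicamycin it was 1.17-fold lower (log2 −0.22, SE 0.065, adjusted p = 0.0301), although the counts overlapped, and this call was lost without control tunicamycin replicate 2 or 3 or without any 1 of the 3 XBP1 knockdown tunicamycin libraries (adjusted p 0.051 to 0.135). The interaction with XBP1 knockdown was 0.5 on the log2 scale (SE 0.143, adjusted p = 0.0837). It passed the threshold without control tunicamycin replicate 2 (adjusted p = 0.0475), without XBP1 knockdown vehicle replicate 3 (0.018) and in DESeq2 (0.0147).

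STC2 (ENSG00000113739, chr5:172741726-172755450, minus strand) encodes stanniocalcin 2, a secreted glycoprotein that inhibits the protease PAPPA and so restrains insulin-like growth factor signalling. Control libraries held 282, 300 and 275 counts with vehicle and 4005, 4121 and 4270 with tunicamycin. CARM1 knockout libraries held 1543, 1377 and 1086 with vehicle and 6583, 7194 and 7345 with tunicamycin. XBP1 knockdown libraries held 355, 390 and 331 with vehicle and 4994, 4173 and 4455 with tunicamycin. Every treated library exceeded every untreated one, and the knockout libraries were the highest under each treatment. Means with vehicle were 20.8 CPM ± 2.05 in control, 120 CPM ± 4.44 in CARM1 knockout and 25.9 CPM ± 2.33 in XBP1 knockdown cells, and with tunicamycin 333 CPM ± 7.88, 573 CPM ± 9.66 and 362 CPM ± 8.93. STC2 rose 16.2-fold in control cells (log2 4.01, SE 0.073, adjusted p = 6.46e-16), 4.91-fold in CARM1 knockout cells (log2 2.3, SE 0.039, adjusted p = 1.86e-21) and by 3.8 on the log2 scale in XBP1 knockdown cells (SE 0.0636, adjusted p = 1.88e-15). Its response was smaller in the knockout by a log2 difference of −1.74 (SE 0.0796, adjusted p = 8.25e-12). Against control cells the knockout had 5.6-fold more with vehicle (log2 2.49, SE 0.0743, adjusted p = 8.73e-14) and 1.73-fold more with tunicamycin (log2 0.79, SE 0.0394, adjusted p = 8.34e-11). GDF15 and STC2, both induced by tunicamycin, differed from control in opposite directions in the knockout line. In XBP1 knockdown cells the difference from control was 0.31 with vehicle (SE 0.102, adjusted p = 0.1) and 0.13 with tunicamycin (SE 0.0438, adjusted p = 0.0663), and neither passed the test.

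VEGFA (ENSG00000112715, chr6:43737921-43754224, plus strand) encodes the main growth factor for endothelial cells. Control libraries held 212, 223 and 292 counts with vehicle and 567, 599 and 569 with tunicamycin. In the CARM1 knockout there were 62, 64 and 49 with vehicle and 435, 465 and 423 with tunicamycin. XBP1 knockdown libraries held 268, 259 and 279 with vehicle and 785, 595 and 605 with tunicamycin. Untreated knockout libraries were far below all others, and treated ones lay between the untreated and treated control libraries. An antisense gene on the other strand, ENSG00000272114, had 0 to 14 counts per library, and whether counting used strand is not stated. VEGFA rose 2.68-fold in control cells (17.5 CPM ± 1.81 to 46.6 CPM ± 3.14, log2 1.42, SE 0.0945, adjusted p = 3.82e-09). It rose 7.04-fold in CARM1 knockout cells (5.26 CPM ± 0.407 to 35.9 CPM ± 2.03, log2 2.82, SE 0.108, adjusted p = 2.81e-15) and 2.7-fold in XBP1 knockdown cells (19.4 CPM ± 0.92 to 52.6 CPM ± 2.66, log2 1.43, SE 0.0775, adjusted p = 1.06e-09). The interaction with CARM1 knockout was 1.37 on the log2 scale (SE 0.148, adjusted p = 8.76e-07). Knockout cells had 3.44-fold less VEGFA than control cells with vehicle (log2 −1.78, SE 0.134, adjusted p = 7.39e-09) and 1.29-fold less with tunicamycin (log2 −0.37, SE 0.0746, adjusted p = 0.000403). In XBP1 knockdown cells the difference from control was 0.14 (adjusted p = 0.519) with vehicle and 0.18 (adjusted p = 0.121) with tunicamycin.

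INHBE (ENSG00000139269, chr12:57846106-57853063, plus strand) encodes the activin βE subunit, a TGFβ-family hepatokine. Control libraries held 5, 12 and 3 counts with vehicle and 405, 444 and 501 with tunicamycin. CARM1 knockout libraries held 4, 0 and 0 with vehicle and 30, 42 and 35 with tunicamycin. XBP1 knockdown libraries held 4, 9 and 8 with vehicle and 283, 251 and 282 with tunicamycin. The gene was near the limit of detection without tunicamycin, and the 3 genotypes did not overlap with it. Mean levels with tunicamycin were 36.1 CPM ± 2.23 in control, 21.8 CPM ± 1.71 in XBP1 knockdown and 2.9 CPM ± 0.393 in CARM1 knockout cells. The ratio of pooled CPM with tunicamycin to that with vehicle was 75 in control cells (95% counting interval 48.3 to 123), 42.9 in XBP1 knockdown cells (27.9 to 69.8) and 24.3 in CARM1 knockout cells (9.24 to 91). edgeR called the rise in each, but INHBE passed the filter only through tunicamycin libraries, where it was high. These calls are a description, and no p-value is given for them. The fitted log2 change moved from 6.21 to 6.94 without control vehicle replicate 2, and in knockout cells from 4.53 to 3.93 without vehicle replicate 2, whereas without vehicle replicate 1 the remaining knockout vehicle libraries were both at 0. Under tunicamycin INHBE was 12.4-fold lower in CARM1 knockout than in control cells (log2 −3.63, SE 0.124, adjusted p = 9.71e-13) and 1.66-fold lower in XBP1 knockdown cells (log2 −0.73, SE 0.0891, adjusted p = 3.83e-05). With vehicle the pooled ratio of control to knockout was 4.05 (1.36 to 16.3, adjusted p = 0.0771), and the call was made without control vehicle replicate 3 (adjusted p = 0.0333) or without knockout vehicle replicate 1 (0.0123). Neither interaction passed (log2 −1.7, SE 1.1, adjusted p = 0.306 for CARM1 knockout, and −0.81, SE 0.477, adjusted p = 0.495 for XBP1 knockdown).

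**Figure D2:**
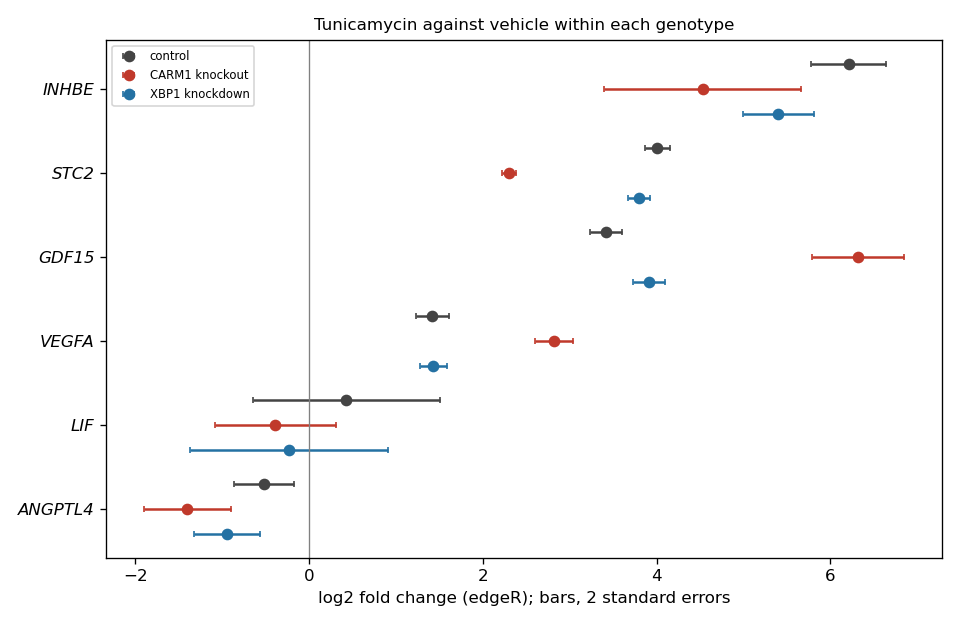
Log2 fold change of tunicamycin against vehicle in each genotype for the 6 members with a fold change in every genotype, with bars of 2 standard errors. The red point of CARM1 knockout lies to the right of control for GDF15 (6.32 against 3.42) and VEGFA (2.82 against 1.42) and to the left for STC2 (2.3 against 4.01); LIF spans 0 in all 3.

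The 3 classical inflammatory genes were above the limit of detection in the CARM1 knockout libraries only. In the same libraries the leukocyte markers summed to 5.48 to 8.34 CPM, with PTPRC at no more than 2 counts and CD3E at 0, and the part of the marker differences in these results was not tested. CXCL8 (ENSG00000169429, chr4:74606236-74609433, plus strand) encodes interleukin 8, a chemokine that draws neutrophils. Untreated knockout libraries held 22, 16 and 6 counts, treated ones 19, 15 and 31, and the other 12 libraries 0. A count of 0 allows up to 3 counts per library, which is 0.226 to 0.263 CPM in those groups. Against that floor CXCL8 was at least 5.37-fold higher in knockout than in control cells with vehicle and at least 7.06-fold higher with tunicamycin. The 3 genes passed the filter only through the knockout libraries, so they had to differ from control cells and no p-value is given for that. The treatments overlapped in the knockout, at 1.25 CPM ± 0.518 and 1.76 CPM ± 0.647 (log2 0.48, SE 0.376, adjusted p = 0.342).

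IL6 (ENSG00000136244, chr7:22765503-22771621, plus strand) encodes a cytokine that acts through IL6R and IL6ST. Untreated CARM1 knockout libraries held 28, 23 and 17 counts, treated ones 40, 31 and 47, and all others 0. It was at least 8.69-fold higher than in control cells with vehicle and at least 12.9-fold higher with tunicamycin. In knockout cells it rose 1.62-fold with tunicamycin (2.02 CPM ± 0.137 to 3.21 CPM ± 0.666, log2 0.7, SE 0.254, adjusted p = 0.0338), and the libraries did not overlap. That call was lost in DESeq2 (adjusted p = 0.109), with all libraries in one fit (0.162), without any 1 of the 3 knockout vehicle libraries and without knockout tunicamycin replicate 1 or 3 (0.0548 to 0.147). Opposite-strand genes that overlap IL6 also had counts in the knockout, IL6-AS1 with 12 to 21 per library and STEAP1B with 162 to 238, against at most 2 elsewhere. Their part in the IL6 counts was not tested.

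CXCL2 (ENSG00000081041, chr4:74962757-74964913, minus strand) encodes another neutrophil chemokine, and had the largest fold response of the 3 to tunicamycin. CARM1 knockout libraries held 37, 24 and 36 counts with vehicle and 209, 184 and 261 with tunicamycin. XBP1 knockdown libraries with tunicamycin held 3, 2 and 0, and the other 9 libraries none. In knockout cells CXCL2 rose 6.24-fold (3 CPM ± 1.06 to 17.8 CPM ± 3.07, log2 2.64, SE 0.186, adjusted p = 1.27e-10). Against control cells it was at least 12.9-fold higher with vehicle and at least 71.2-fold higher with tunicamycin. Whether its response differed from that of control cells could not be tested, since both control groups were at 0. CXCL1 and CXCL3 are near copies of CXCL2, so the split of counts between them is uncertain. In the knockout CXCL1 had 30 to 78 counts with vehicle and 96 to 109 with tunicamycin, CXCL3 had 12 to 18 and 38 to 55, and both were at 0 in the other 12 libraries.

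CCL2 (ENSG00000108691, chr17:32582293-32584227, plus strand), a monocyte chemokine also regulated by NF-κB, had 0 counts in all 18 libraries, which allows up to 0.344 CPM in the shallowest library. It was not detectable at this depth, in the knockout as elsewhere.

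**Figure D3:**
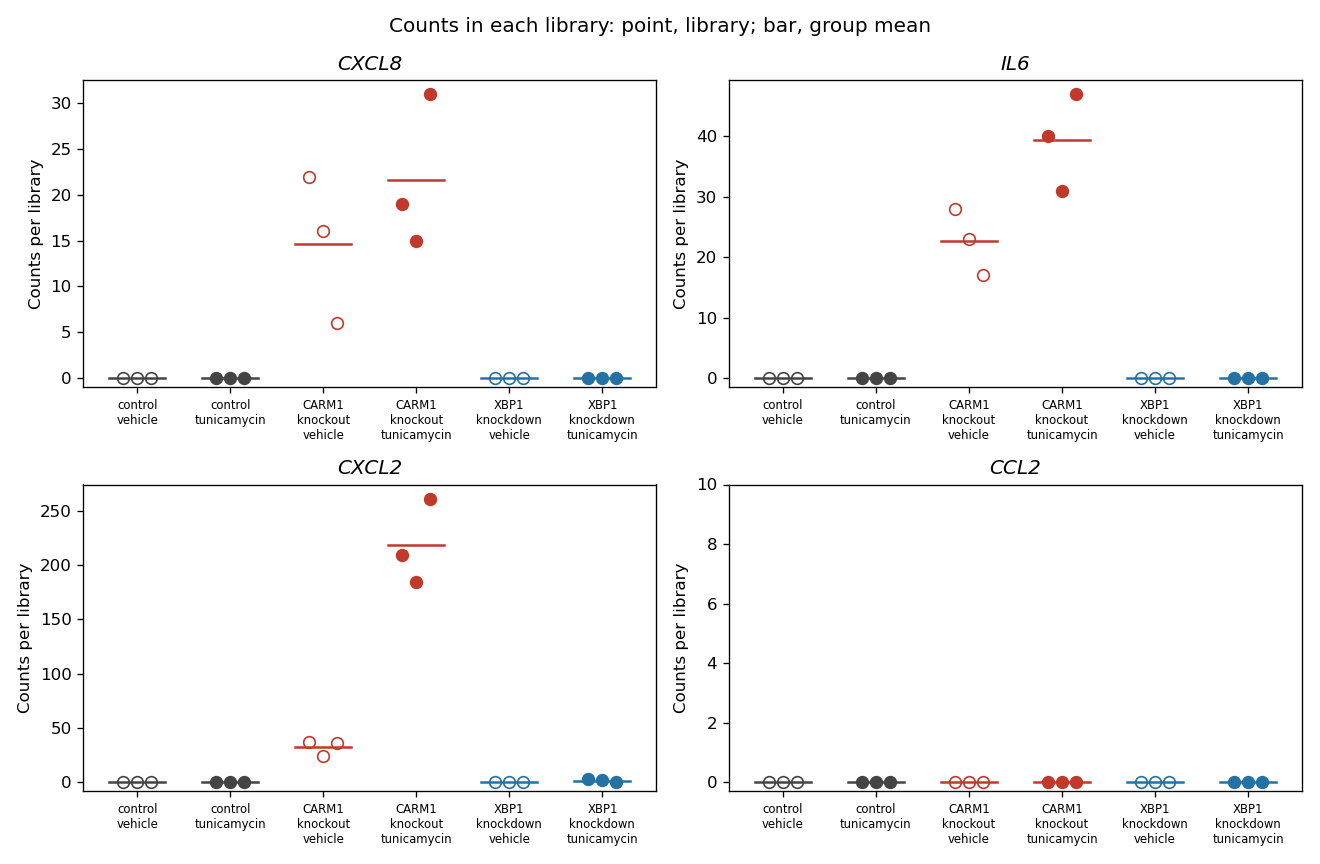
Counts of CXCL8, IL6, CXCL2 and CCL2 in each library on linear axes, by group, with open points for vehicle, filled points for tunicamycin and bars for the mean of 3 libraries. CXCL8, IL6 and CXCL2 lie above 3 counts in the 6 CARM1 knockout libraries and in no other, and CXCL2 alone reaches 184 to 261 counts with tunicamycin; CCL2 is at 0 throughout.

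LIF (ENSG00000128342, chr22:30636442-30642748, minus strand) encodes a cytokine that acts through LIFR and IL6ST, and it had few counts. Control libraries held 11, 3 and 10 counts with vehicle and 9, 10 and 10 with tunicamycin. In the CARM1 knockout there were 29, 23 and 14 with vehicle and 26, 14 and 13 with tunicamycin. XBP1 knockdown libraries held 5, 8 and 13 with vehicle and 6, 4 and 10 with tunicamycin. Knockout libraries exceeded control libraries under both treatments, and no genotype showed a shift with tunicamycin beyond its spread. The ratio of pooled CPM of knockout to control was 3.4 with vehicle (95% counting interval 2.1 to 5.67, adjusted p = 0.00234) and 1.85 with tunicamycin (1.16 to 3.02, adjusted p = 0.0619). The second was called without knockout tunicamycin replicate 3 (adjusted p = 0.0403). For tunicamycin the log2 change was 0.43 (SE 0.54, adjusted p = 0.575) in control, −0.39 (SE 0.348, adjusted p = 0.41) in CARM1 knockout and −0.23 (SE 0.568, adjusted p = 0.805) in XBP1 knockdown cells. LIF-AS1 and LIF-AS2, on the other strand, had at most 3 counts per library.

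ANGPTL4 (ENSG00000167772, chr19:8428173-8439254, plus strand) encodes an angiopoietin-like protein that inhibits lipoprotein lipase and acts on vessels. Control libraries held 96, 83 and 120 counts with vehicle and 52, 62 and 72 with tunicamycin. Knockout libraries held 80, 70 and 39 with vehicle and 18, 20 and 38 with tunicamycin. XBP1 knockdown libraries held 112, 106 and 89 with vehicle and 47, 42 and 56 with tunicamycin. In contrast to the induced members it was lower with tunicamycin, and after scaling to library size the treatments did not overlap in any genotype. It fell 1.43-fold in control cells (7.19 CPM ± 0.982 to 4.97 CPM ± 0.586, log2 −0.52, SE 0.173, adjusted p = 0.0235), 2.63-fold in CARM1 knockout cells (5.52 CPM ± 0.926 to 2.05 CPM ± 0.84, log2 −1.4, SE 0.248, adjusted p = 9.08e-05) and 1.92-fold in XBP1 knockdown cells (7.4 CPM ± 1.1 to 3.88 CPM ± 0.681, log2 −0.94, SE 0.19, adjusted p = 0.000909). In control cells the call was lost in DESeq2 (adjusted p = 0.0586) and without control vehicle replicate 1 or 3 or control tunicamycin replicate 1 (0.0607 to 0.0934). Under tunicamycin ANGPTL4 was 2.4-fold lower in knockout than in control cells (log2 −1.26, SE 0.258, adjusted p = 0.000426). With vehicle it was 1.33-fold lower (log2 −0.41, SE 0.176, adjusted p = 0.0459), a call lost without control vehicle replicate 1 or 3 or knockout vehicle replicate 2 or 3 (0.0691 to 0.176). The interaction was −0.9 (SE 0.314, adjusted p = 0.0446), and DESeq2 did not call it (adjusted p = 0.0572). When 1 library was left out it stayed under 0.05 only for replicate 3 of control vehicle, knockout vehicle or knockout tunicamycin. Leaving out each of the other 9 libraries gave an adjusted p of 0.0529 to 0.136.

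**Figure D4:**
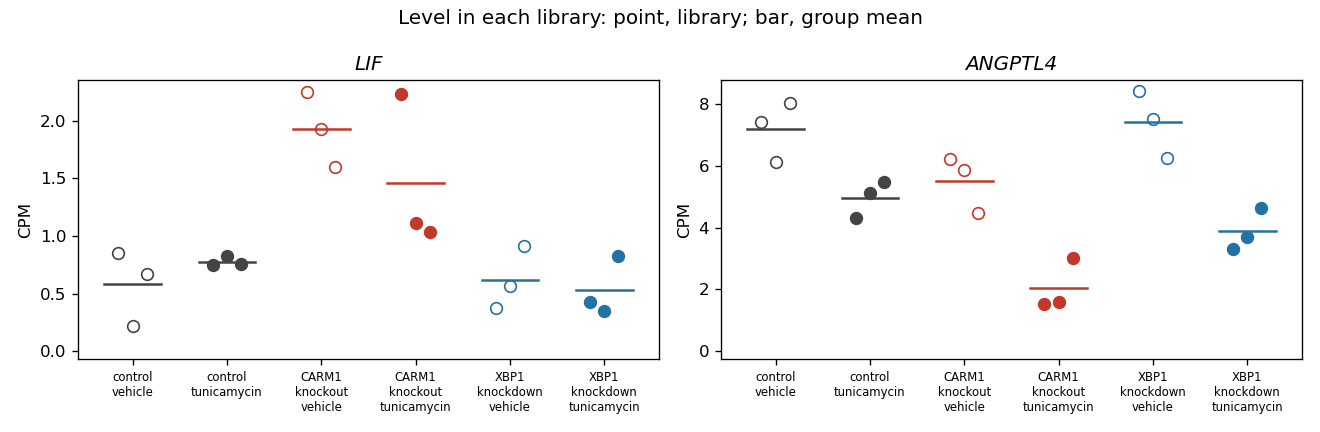
Level of LIF and ANGPTL4 in each library, in CPM on linear axes, by group, with open points for vehicle, filled points for tunicamycin and bars for the mean of 3 libraries. ANGPTL4 is lower with tunicamycin in each genotype, from a mean of 7.19 to 4.97 CPM in control cells, and LIF is highest in CARM1 knockout cells, at a mean of 1.93 and 1.46 CPM.

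Of the 9 members tested, with vehicle 5 were above and 3 below control cells in the CARM1 knockout, against 37.5% and 36.9% of all genes tested. With tunicamycin 4 were higher and 4 lower, against 38.4% and 36.8%. CXCL8, IL6 and CXCL2, which had to differ once they had passed the filter, are among the higher in both. The other higher members were STC2 and LIF with vehicle and STC2 alone with tunicamycin. The medians of the 6 members with a fold change were −1.09 and −0.81 on the log2 scale, and those of all genes −0.03 and −0.02. For the interaction with CARM1 knockout 2 members were higher, GDF15 and VEGFA, and 2 lower, STC2 and ANGPTL4, against 10.5% and 12.4% of all genes.

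For XBP1 knockdown against control cells, 6 of the 9 members tested had a fold change, since CXCL8, IL6 and CXCL2 were undetectable in both genotypes. With vehicle 0 members were higher in edgeR, against 2.07% of all genes, and 1 was lower, GDF15, against 3.03%. With tunicamycin 0 were higher, against 6.99%, and 2 were lower, GDF15 and INHBE, against 8.55%. At an unadjusted p under 0.05 there was 1 higher member with vehicle and 2 with tunicamycin, and DESeq2 called 0 in both. For the interaction with XBP1 knockdown 0 members were called in either direction, against 0.364% of all genes higher and 1.67% lower. At an unadjusted p under 0.05 there was 1 in each direction, GDF15 higher and STC2 lower, and DESeq2 called 1, GDF15.

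**Figure D5:**
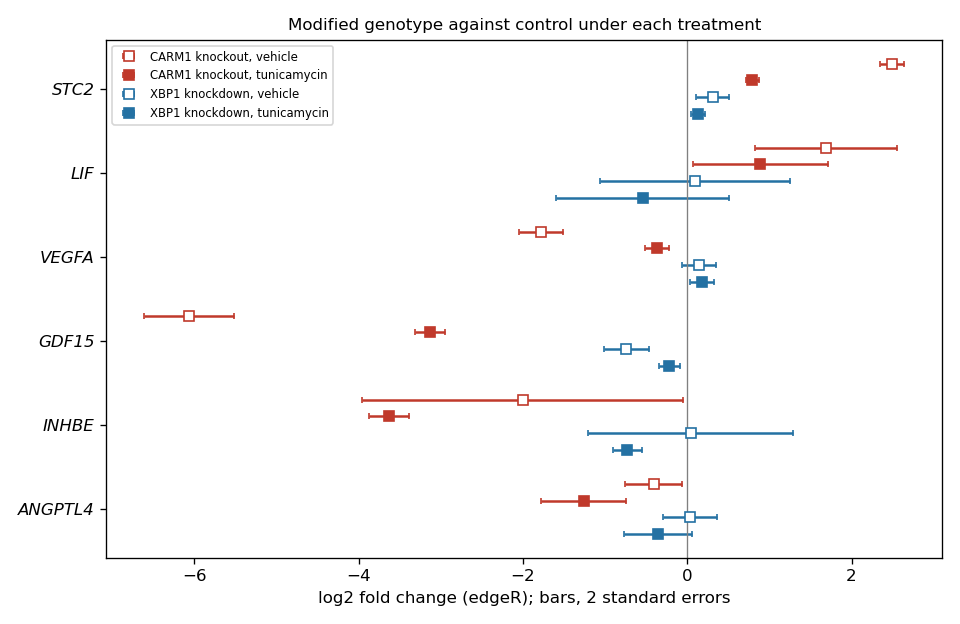
Log2 fold change of each modified genotype against control under vehicle (open) and tunicamycin (filled) for the 6 members with a fold change, with bars of 2 standard errors. CARM1 knockout (red) lies from −6.06 for GDF15 to 2.49 for STC2 with vehicle, whereas XBP1 knockdown (blue) lies between −0.74 and 0.31 over both treatments.

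Genes of the PERK and ATF4 arm rose together with GDF15, STC2, VEGFA and INHBE. All 15 of 15 tested rose in control and XBP1 knockdown cells, against 22.0% and 19.2% of all genes, and 14 rose in CARM1 knockout cells (20.6% of all genes), where FGF21, a stress hormone, was at 0 in every library. FGF21 and NUPR1 passed the filter only through tunicamycin libraries, where they were high, so their part in these counts is a description. The list's median log2 change was 3.38 in control cells, or 3.24 with undetectable genes set to their bound, against 0 for all genes. SLC7A11, the cystine transporter, rose by 5.02 on the log2 scale (SE 0.0777), CHAC1, which degrades glutathione, by 4.78 (SE 0.0884) and TRIB3, a pseudokinase that feeds back on ATF4, by 4.73 (SE 0.0819), with adjusted p of 1.33e-16, 7.02e-16 and 4.51e-16. The response was smaller in the CARM1 knockout for 8 of the 15 and larger for 2, against 12.4% and 10.5% of all genes. Of the 15, 2 were undetectable in a compared group. With tunicamycin, 5 of the 15 exceeded control cells in the knockout and 7 were below them, against 38.4% and 36.8% of all genes.

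Of 13 NF-κB subunits and feedback genes tested, 1 was higher and 4 were lower with tunicamycin in control cells, against 22.0% and 19.9% of all genes. NFKB2, a subunit, was higher by 0.48 (SE 0.114, adjusted p = 0.00274). IER3, an early response gene, was lower by a log2 change of −0.66 (SE 0.104, adjusted p = 6.81e-05) and NFKBIA, the inhibitor of NF-κB, of −0.5 (SE 0.0593, adjusted p = 3.85e-06). In CARM1 knockout against control cells 9 of the 13 were higher and 2 lower with vehicle, and 12 were higher and 1 lower with tunicamycin, with a median of 0.76 and 1.27. Of all genes 37.5% were higher and 36.9% lower with vehicle, and 38.4% and 36.8% with tunicamycin. BIRC3 and ICAM1 passed the filter only through the knockout libraries and so had to differ. Of the 11 others, 7 were higher and 2 lower with vehicle and 10 higher and 1 lower with tunicamycin, a split made after the values were seen. The exception with tunicamycin was the subunit REL (log2 −1.19, SE 0.104, adjusted p = 6.15e-08). RELA, the main activating subunit, was higher by 0.76 (SE 0.0512, adjusted p = 1.81e-09) and 1.3 (SE 0.0504, adjusted p = 4.43e-12). In XBP1 knockdown cells with tunicamycin 4 of the 13 were higher than in control cells, NFKB1, RELB, NFKBIA and IER3, by 0.2 to 0.64 on the log2 scale, against 6.99% of all genes, and DESeq2 called 2. These subunits, apart from those in the rule for named genes, were singled out after their values were seen.

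Of 25 other cytokines and chemokines 17 were tested. In control cells 2 rose and 2 fell with tunicamycin, against 22.0% and 19.9% of all genes, and 8 of the 17 were undetectable in a compared group. CTF1, an IL6-family cytokine, rose by 0.57 (SE 0.0944, adjusted p = 0.000125). In CARM1 knockout cells 8 rose and 1 fell, against 20.6% and 18.8% of all genes. IL1A and TSLP passed the filter only through the knockout libraries with tunicamycin, so a rise of these genes there was fixed beforehand. Against control cells 12 were higher and 3 lower in the knockout with vehicle and 13 were higher and 2 lower with tunicamycin, against 37.5% and 36.9% of all genes with vehicle and 38.4% and 36.8% with tunicamycin. However, 9 of the 17 (CXCL1, CXCL3, CXCL5, IL1A, IL1B, IL15, IL18, TNF and TSLP) passed the filter only through the knockout libraries, so they had to differ and the counts over all 17 are a description. Of the 8 others, 4 were higher and 3 lower with vehicle and 4 higher and 2 lower with tunicamycin. Singled out after their values were seen, IL1B had 31 to 85 counts in the knockout libraries and at most 1 elsewhere, TNF 27 to 41 against at most 2, and IL1A 5 to 9 with vehicle and 38 to 53 with tunicamycin against at most 1. Both IL1 genes encode cytokines that signal to NF-κB, as does TNF. In XBP1 knockdown cells 1 of the 17 was lower than in control cells with tunicamycin, against 8.55% of all genes, and DESeq2 called 0.

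Of 12 other angiogenic factors tested, 2 rose and 3 fell with tunicamycin in control cells, against 22.0% and 19.9% of all genes. DESeq2 called 1 higher and 2 lower. ANG, which encodes angiogenin, a ribonuclease that promotes vessel growth, held 0 to 5 counts in control cells with vehicle and 76 to 101 with tunicamycin (log2 5.15, SE 0.399, adjusted p = 2.45e-08). It also rose in CARM1 knockout cells, from 31 to 37 counts to 103 to 137 (log2 1.73, SE 0.178, adjusted p = 5.92e-08), and in XBP1 knockdown cells, from 4 to 7 counts to 24 to 37 (log2 2.59, SE 0.403, adjusted p = 9.21e-05). ANG was singled out after its values were seen. In control cells VEGFB, a relative of VEGFA, was lower with tunicamycin by a log2 change of −0.63 (SE 0.106, adjusted p = 0.000132). FGF2, a fibroblast growth factor, was higher by 0.29 (SE 0.1, adjusted p = 0.0307). Of 11 hypoxia-inducible genes tested 2 rose and 2 fell in control cells, against the same shares of 22.0% and 19.9%. SLC2A1, a glucose transporter, was higher by 0.52 (SE 0.0691, adjusted p = 1.32e-05), while LDHA, a glycolytic enzyme (log2 −0.6, SE 0.0472, adjusted p = 2.94e-08), and BNIP3, a mitophagy receptor (log2 −0.55, SE 0.102, adjusted p = 0.000331), were lower. In CARM1 knockout against control cells with vehicle 7 of the 12 angiogenic factors were higher and 3 lower, and 6 of the 11 hypoxia genes were higher and 3 lower, against 37.5% and 36.9% of all genes. PDGFA, PDGFB and EDN1 among the former and NDRG1 and LOX among the latter passed the filter only through the knockout libraries and so had to differ. Without them 5 of 9 angiogenic factors were higher and 3 lower, and 4 of 9 hypoxia genes were higher and 3 lower.

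Receptors for several members were at or near 0. GFRAL, the receptor of GDF15, had at most 2 counts in any library, its co-receptor RET at most 7, and KDR, the main receptor of VEGFA, and CXCR1, a receptor of CXCL8, were at 0 in all 18. CCR2, the receptor of CCL2, had at most 1 count. Other receptors on the list had more. CXCR2 held 11 to 21 counts in control libraries with tunicamycin, and IL6R 29 to 57 in control libraries with vehicle. In CARM1 knockout libraries with vehicle FLT1 held 50 to 65 and NRP1 49 to 85. LIFR rose above 15 counts only in the CARM1 knockout, at 106 to 155, while IL6ST, the shared receptor of IL6 and LIF, was at 106 CPM in knockout and 33.9 CPM in control cells with vehicle (log2 1.61, SE 0.0611, adjusted p = 1.67e-12). Of 11 receptors and targets tested 0 were called with tunicamycin in control cells by edgeR, 3 were higher at an unadjusted p under 0.05 and DESeq2 called 0. Of all genes 22.0% rose and 19.9% fell. In the knockout with vehicle 8 were higher than in control cells and 1 lower, against 37.5% and 36.9% of all genes. FLT1, NRP1 and LPL passed the filter only through the knockout libraries and so had to differ. Without them 5 of the remaining 8 were higher and 1 lower.

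Of 8 relatives of the members tested, 0 rose with tunicamycin in control cells in edgeR and in DESeq2, as at an unadjusted p under 0.05, and 3 fell. Of all genes 22.0% rose and 19.9% fell. STC1, the paralog of STC2, held 14 to 27 counts in control cells with vehicle and 1 to 8 with tunicamycin (log2 −2.15, SE 0.567, adjusted p = 0.00574), opposite to STC2. INHBA, which encodes the activin βA subunit, had 1270 to 2051 counts in CARM1 knockout libraries and at most 10 in the others, and passed the filter only through the knockout, while INHBE was lower in the knockout under tunicamycin. Both were singled out after their values were seen.

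The genes with the most similar profile over the 6 group means were found among 9376 candidates by the root mean square difference of centred log2 CPM. For GDF15 they were DDIT4 (0.81), UNC5B (1.02) and SESN2 (1.4). For INHBE they were CHAC1 (0.718), DERL3 (0.973) and SESN2 (1.04), and for STC2 CAMTA2 (0.527), SEC24D (0.531) and CEBPB (0.537). VEGFA was closest to PCGF3-AS1 (0.246), DNAJC3-DT (0.308) and PABPC1L (0.312), and CXCL2 to SAT1 (0.642), EGFR (0.681) and PHLDA1 (0.713). With 6 groups of which 2 stand apart, this describes profiles only.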

How the data were processed

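RNA was sequenced from the 3′ end of mRNA as 75 nt single reads. The authors aligned reads to hg19 with bowtie2 and used RSEM, and the expected counts for each Ensembl gene that the authors deposited are whole and not normalized. The version is given as 1.2.3 in the submitters' processing notes and otherwise in the methods. The smallest and largest library totals are given in the results. The floor was fixed at 3 counts per library, and its value in CPM depends on the TMM library size. Intervals and floors cover counting error only.

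Libraries were grouped by the labels, and 0 columns were left unmapped. In R 4.3.3, edgeR 4.0.16 was used with filterByExpr at a minimum count of 10, TMM normalization and quasi-likelihood F tests on the compared groups alone, with Benjamini-Hochberg adjustment over all genes tested and a threshold of 0.05. SE was taken as the absolute log2 change over the root of the F statistic. Counts were scaled to CPM with TMM library sizes. The script was tested on simulated data. DESeq2 1.42.0 and the other alternatives are in the closing section. Between libraries of a group chi-square per degree of freedom exceeded 1, so none were merged.

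All 10 members are named. Of each gene list, up to 3 called genes with the largest change with tunicamycin in control cells and a mean log2 CPM of at least 3 are named, and for likeness the 3 closest genes for each member reaching 10 CPM. Members, lists and motifs were chosen with earlier results of these data known. Symbols and GRCh37 positions come from GENCODE, and CCL5 and PECAM1 were not matched and are not analysed here.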

Additional observations from a re-analysis of the deposited data

Results flagged for a closer look

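The response to tunicamycin differed between CARM1 knockout and control cells for 4 members, by the interaction term in edgeR. On the log2 scale the difference was 2.89 for GDF15 and 1.37 for VEGFA, with the larger rise in the knockout, and −1.74 for STC2, with the smaller rise. For ANGPTL4 it was −0.9, with the larger fall in the knockout, and DESeq2 did not call it (adjusted p = 0.0572). Adjusted p was 4.09e-05, 8.76e-07, 8.25e-12 and 0.0446 in the same order. GDF15 held 7 counts in all in the untreated knockout libraries.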

How the results depend on the processing

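With XBP1 knockdown, members called with vehicle went from 1 to 2 with no filter and with all libraries in one fit, which added STC2. With tunicamycin they went from 2 to 1 with all libraries in one fit, which lost GDF15, and ranged from 1 to 2 when 1 library was left out. For the interaction they went from 0 to 1 in DESeq2 and with no filter, which added GDF15, and ranged from 0 to 1 when 1 library was left out. No other count of members moved by over 1.5 times. Uncalled log2 changes that turned sign when 1 library was left out ranged from −0.67 to 0.16 (LIF, tunicamycin in XBP1 knockdown cells), −0.34 to 0.77 (INHBE), −0.29 to 0.44 (LIF) and −0.07 to 0.14 (ANGPTL4, XBP1 knockdown with vehicle), −2.36 to 1.98 (INHBE, CARM1 knockout interaction) and −0.08 to 0.06 (VEGFA, XBP1 knockdown interaction). The cause was not tested. Replicate numbers did not pair the libraries: deviations of same-numbered libraries correlated at −0.0513 to 0.0451 over 11 pairs of groups. With a replicate block ANGPTL4 in CARM1 knockout against control cells with vehicle stayed at −0.41 but was no longer called (adjusted p = 0.0681), as in DESeq2 (0.142), with DESeq2 size factors (0.0659), with no filter (0.0701) and with all libraries in one fit (0.101). The block changed no other call of a member. Over all settings 634 values kept direction and side of the threshold, 36 lost a call, 10 gained one and 14 turned sign. Depth limits LIF in control and XBP1 knockdown cells, INHBE without tunicamycin and GDF15 in the untreated knockout, at under 10 counts in a group's mean.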
